A study of Mus musculus with 3 samples.

Results

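The ectodysplasin ligand Eda, its receptor Edar and the receptor's adaptor Edaradd were followed through single-cell transcriptomes of the developing mouse palate. These 3 genes were taken by name, as parts of 1 pathway, from the 32285 genes counted. The study profiled the palatal shelves, the paired outgrowths that meet and fuse to form the secondary palate, at embryonic days E13.5, E14.5 and E15.5. Each stage is 1 droplet library of wild-type C57BL/6J embryos, made from pooled tissue of 3 embryos that was digested with TrypLE and fixed in methanol. Among its stated aims are the transcript profile of the palate over time and Wnt-dependent events in Pax9-/- embryos. All 3 libraries used here are wild type, so they hold no Pax9-/- cells.

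Ectodysplasin is a membrane-bound ligand of the tumour necrosis factor family that is cut by furin-type proteases and released. Its receptor EDAR sits on ectodermal epithelium and recruits the death-domain adaptor EDARADD, which passes the signal through TRAF6 and the IKK complex to NF-kB. The pathway is known for patterning hair, teeth, sweat glands and, on the oral face of the palate, the epithelial ridges called rugae; mutations in any of the 3 genes cause hypohidrotic ectodermal dysplasia.

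Eda (ENSMUSG00000059327) spans X:99975606-100400762 on the plus strand of GRCm38, a locus of 425157 bp with 12 annotated transcripts, of which 9 are coding (GENCODE M21). Alternative splicing of an exon near its 3′ end decides which receptor the ligand binds: as background, EDA-A1 binds EDAR and EDA-A2 binds EDA2R. The 2 forms differ by 6 bases at the end of that exon, which stops at X:100395149 in 3 coding transcripts and at X:100395143 in 2, each time joined to the exon starting at X:100396905. The annotated exon of the shorter form also starts later, at X:100395028 against X:100395019. The junction is shown from the transcript sequences, 5′ to 3′ on the plus strand, because a gene-level count cannot tell these forms apart. Capitals mark the 6 bases at the exon's end that are kept in EDA-A1 only.
EDA-A1: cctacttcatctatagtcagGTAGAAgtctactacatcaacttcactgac
EDA-A2: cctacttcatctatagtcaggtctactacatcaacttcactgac
Of the remaining coding transcripts, 3 have another exon end before X:100396905 and 1 has another last exon, so they hold neither junction. Every Eda value below is the sum over all transcripts, so it counts ligand for either receptor and transcripts assigned to neither form. Edar (ENSMUSG00000003227) lies at 10:58600789-58675654 and Edaradd (ENSMUSG00000095105) at 13:12472632-12520438, both on the minus strand with 1 annotated transcript.

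In order of stage, the libraries held 4236, 2079 and 3113 cell barcodes and 11472663, 5293977 and 8313677 unique molecular identifiers (UMIs, 1 per captured transcript molecule) with medians of 1735, 1614 and 1699 UMIs per cell. After removal of cells with under 500 genes and of likely doublets, 7917 cells were kept, and at most 3 barcodes were shared between any pair of libraries. Cells were sorted into classes by 13 lists of 8 marker genes, none of which holds a member. The mesenchymal lineage (mesenchymal, osteogenic and chondrogenic cells) numbered 509, 1157 and 1699 cells and the epithelium 77, 93 and 235. All 8 mesenchymal markers in the lineage, and all 8 epithelial markers in the epithelium, were at 20 CPM (UMIs of a gene per 1e6 UMIs of the cells) or more in every library. The E13.5 library stood apart: 51.8% of its cells were neuronal, against 7.09% and 7.0% in the later ones, so any value over all of its cells describes a tissue with much more neural material. Values are therefore given per class, as UMIs summed over a class in a library and scaled to CPM, with 95% exact Poisson intervals in brackets; with 1 library per stage, a difference between stages has no replicate check and cannot be told apart from a difference between libraries.

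Eda, the ligand, was read in most classes, and most of its molecules came from the mesenchymal lineage in the E14.5 and E15.5 libraries. In lineage cells Eda stood at 101 CPM (84.8-119), then 305 CPM (286-325) and 391 CPM (374-409) in order of stage, from 142, 944 and 1978 UMIs. In the epithelium Eda was 171 CPM (126-227), 229 CPM (180-287) and 247 CPM (214-284), from 47, 74 and 198 UMIs. The lineage value was higher at each later stage with no overlap of intervals, while neighbouring epithelial intervals overlapped. The lineage held 23.7%, 73.3% and 81.9% of all Eda UMIs of the 3 libraries and the epithelium 7.86%, 5.75% and 8.20%. Of the kept cells, the lineage made up 14.2%, 66.1% and 65.8% and the epithelium 2.15%, 5.31% and 9.09%. The shares of Eda UMIs thus also depend on how much of each class a library held. At E13.5 the largest share, 44.6%, came from neuronal cells, which were many but low: their Eda level was 42.1 CPM (37.2-47.5), 78.2 CPM (51.5-114) and 83.0 CPM (61.8-109) over the 3 stages. The later neuronal values rest on few cells, since the 5 highest held 92.6% of 27 Eda UMIs at E14.5 and 72.5% of 51 at E15.5.

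Among classes of 20 or more cells, the order of Eda levels at E15.5 ran from osteogenic cells at 488 CPM (426-557) over mesenchymal cells at 389 CPM (370-407) and stratified epithelial cells at 319 CPM (273-370) to glial cells at 287 CPM (193-409). Chondrogenic cells followed at 207 CPM (146-286), endothelial cells at 109 CPM (67.6-167), the remaining epithelial cells at 87.9 CPM (55.1-133), neuronal cells at the level given above and myeloid cells at 12.9 CPM (2.66-37.7). Osteogenic cells lay above mesenchymal cells by their intervals, and the mesenchymal and stratified intervals, though apart, lay within 1 CPM of each other. Glial cells could not be separated from mesenchymal, stratified or chondrogenic cells, chondrogenic from stratified or endothelial cells, nor endothelial, remaining epithelial and neuronal cells from one another. Mesenchymal markers in glial cells summed to 21.3%, 48.5% and 36.4% of their lineage level over the 3 stages (3, 5 and 4 of 8 at 20 CPM or more; Twist2 at 0 in the later libraries), and their part in the glial Eda level was not tested. Muscle cells, 8 to 16 per library, were at 266, 294 and 297 CPM over the 3 stages with wide, overlapping intervals. Of the 21 Eda UMIs in 58 endothelial cells at E15.5, 18 lay in 1 cell that also showed 5 mesenchymal markers, so that endothelial value rests on 1 cell.

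**Figure D1:**
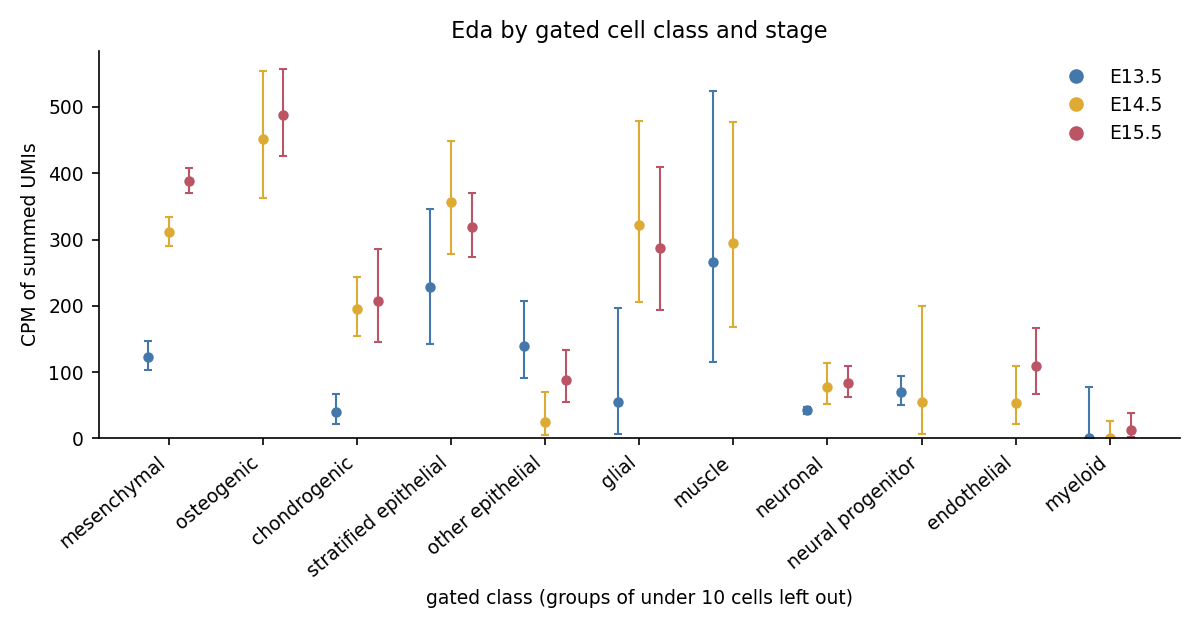
Eda in CPM of summed UMIs for each gated class and library, with 95% exact Poisson intervals; groups under 10 cells are left out. The mesenchymal points stand at 123, 311 and 389 CPM in order of stage, stratified epithelial cells lie between 228 and 356 CPM, and neuronal and myeloid cells stay below 90 CPM.

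The share of cells with an Eda UMI gave the same picture after each cell was thinned at random to 1500 UMIs to remove differences in depth, with shallower cells left out. In the lineage 9.33% of 343, 28.7% of 724 and 34.7% of 1097 cells had an Eda UMI in order of stage, with 166, 433 and 602 cells left out. In the epithelium the shares were 21.4% of 70, 21.6% of 74 and 23.8% of 168 cells, with 7, 19 and 67 left out. Averaged over all possible draws, they were 10.5%, 27.0% and 34.3% in the lineage and 18.0%, 23.6% and 25.3% in the epithelium. Endothelial plus myeloid cells, which serve as a reading of free RNA, had an Eda UMI in 0 of 15, 1.52% of 66 and 4.55% of 88 cells; lineage and epithelial shares were above this at E14.5 and E15.5. Before thinning, the lineage shares were 16.1%, 32.9% and 42.7% at median depths of 2149, 1904 and 2101 UMIs, the epithelial shares 28.6%, 26.9% and 33.6% at 2599, 2477 and 2368 UMIs, and the endothelial plus myeloid shares 0%, 3.92% and 3.45% at 1836, 2152.5 and 1905 UMIs. Before thinning, Eda UMIs were spread unevenly among lineage cells: 4, 51 and 109 cells held 5 or more. The variance of Eda UMIs per cell was 2.26, 4.43 and 5.06 times the mean, above Poisson counting. The Poisson intervals on CPM are therefore narrower than the spread between cells. These values are not corrected for the depth of each cell, and its part in the spread was not tested.

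Between stages, Eda in the lineage was 3.03-fold (2.54-3.64) higher at E14.5 than at E13.5 and a further 1.28-fold (1.19-1.39) higher at E15.5, or 3.89-fold (3.28-4.64) over both steps. At the first step 8.38% of the 11583 genes measured in the lineage were 2-fold or more higher and 3.17% as much lower, and 399 genes had a larger ratio than Eda. At the second step the shares were 1.04% and 1.28%, with Eda in neither. Over both steps they were 10.0% and 4.88%, with 314 genes above Eda. In the epithelium Eda was 1.34-fold (0.916-1.97) and then 1.08-fold (0.823-1.43) the earlier value, or 1.44-fold (1.05-2.03) over both steps, short of 2-fold at each; there 18.8% of 11697 genes were 2-fold higher and 12.4% lower at the first step, 10.3% and 8.56% at the second and 19.5% and 9.59% over both.

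The difference was present in mesenchymal and in chondrogenic cells, and its size depended on which cells were counted. Mesenchymal cells alone went from 123 to 311 and 389 CPM, 2.53-fold (2.10-3.08) and then 1.25-fold (1.15-1.36). Chondrogenic cells, which make the cartilage matrix, went from 40.3 to 196 and 207 CPM, 4.86-fold (2.73-9.28) at the first step and 1.06-fold (0.697-1.58) at the second. When the mix of 4 clusters present at all stages was held fixed, Eda was at 68.4, 177 and 241 CPM, a log2 ratio of 1.36 for the first step and 0.44 for the second. These 4 clusters held 79.2%, 30.2% and 20.4% of the lineage cells, so most cells of the later libraries lie outside that comparison. Eda is X-linked, and cells with Y-linked transcripts and no Xist were found at E14.5 only. At E14.5 Eda stood at 317 CPM (279-359) in 295 cells read as female and 328 CPM (292-367) in 317 read as male, a difference within the counting intervals. In cells read as female Eda was 114, 317 and 420 CPM over the 3 stages, so the order of stages was the same in them. Cells with neither signal, 38.1%, 41.5% and 24.7% of the lineage, had 62.5 CPM (39.6-93.8), 264 CPM (231-301) and 222 CPM (189-259). In these the E15.5 value was not above that of E14.5. Their median depth was 1547, 1384 and 1310 UMIs, against 2744, 2090 and 2503.5 in cells read as female. The reading of sex thus also selects deeper cells. Neuronal markers summed to 328, 183 and 146 CPM in lineage cells (6, 3 and 2 of 8 at 20 CPM or more, none at 0); their part in the first step was not tested. With cells holding 2 or more markers of another lineage removed, the lineage values were 92.8, 326 and 385 CPM.

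Within the lineage, the summed Eda level was higher in bone-forming cells than in other mesenchyme, and lower in cartilage cells. Eda in osteogenic cells was 1.45-fold (1.15-1.80) the mesenchymal level at E14.5 and 1.26-fold (1.09-1.45) at E15.5. At E13.5 only 4 osteogenic cells were found, with no Eda UMI. In chondrogenic cells Eda was 0.328-fold (0.174-0.570), 0.628-fold (0.493-0.792) and 0.533-fold (0.374-0.738) the mesenchymal level at the 3 stages. All 3 chondrogenic intervals lie below equality, and both osteogenic intervals above it. The osteogenic level rested on few cells: at E15.5 the 5 highest of 68 held 40.5% of its 222 Eda UMIs, 1 of them 37. The variance was 9.63 times the mean, with depth not corrected. In thinned cells an Eda UMI was read in 51.4% (34.0-68.6%) of osteogenic and 28.1% (24.6-31.8%) of mesenchymal cells at E14.5, and in 43.1% (30.2-56.8%) and 34.7% (31.7-37.7%) at E15.5. Averaged over all possible draws the osteogenic shares were 40.4% and 40.2%, so the E14.5 share of this draw is high, and no difference in the share of cells is read from it.

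Unsupervised clusters of the same cells showed how far Eda varied within the mesenchyme; since the clusters were made from the 2000 most variable genes of these same cells, the values are a description. Cluster 14, led by the bone genes Runx2, Ibsp, Alpl, Spp1 and Sp7, had the highest Eda of the lineage clusters with 20 cells or more, 586 CPM (521-657) at E14.5 and 624 CPM (566-687) at E15.5. Cluster 3, also with Ibsp among its leading genes, had 94.6 CPM (60.6-141) and 85.6 CPM (53.6-130). The 8 osteogenic markers summed to 1708 and 885 CPM in cluster 14 and to 1970 and 1447 CPM in cluster 3, so the cluster with the larger sum of bone markers had the lower Eda. How many markers carry each sum was not counted, and Ibsp is the only one of them among the leading genes of cluster 3. Cluster 3 was also shallower, with a median of 1312.5 UMIs per cell against 2008 in cluster 14. Cluster 8, with Shox2 and Pax3 among its leading genes, stood at 342 CPM (294-396) and 465 CPM (430-503), and cluster 9, led in part by Msx1, at 240 CPM (185-306) and 319 CPM (281-361). Cluster 4, with Slc26a7, Otor and Aldh1a2 among its leading genes, held 248, 51 and 74 lineage cells in order of stage. It was the largest lineage cluster at E13.5, and its Eda went from 96.0 CPM (72.9-124) to 260 CPM (174-374) and 324 CPM (249-416). Clusters 8, 9, 14, 19 and 21 each had under 20 lineage cells at E13.5. The lineage values of the 3 libraries thus sum over different mixes of clusters. The cartilage cluster 22 went from 11.8 CPM (1.43-42.6) to 86.8 CPM (47.5-146) and 218 CPM (141-322). Of the 4 clusters with 20 or more cells in every library, clusters 4, 13 and 22 had a higher Eda value at each later stage. Cluster 3, at 44.3 CPM (9.13-129) in E13.5, did not differ beyond its intervals.

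**Figure D2:**
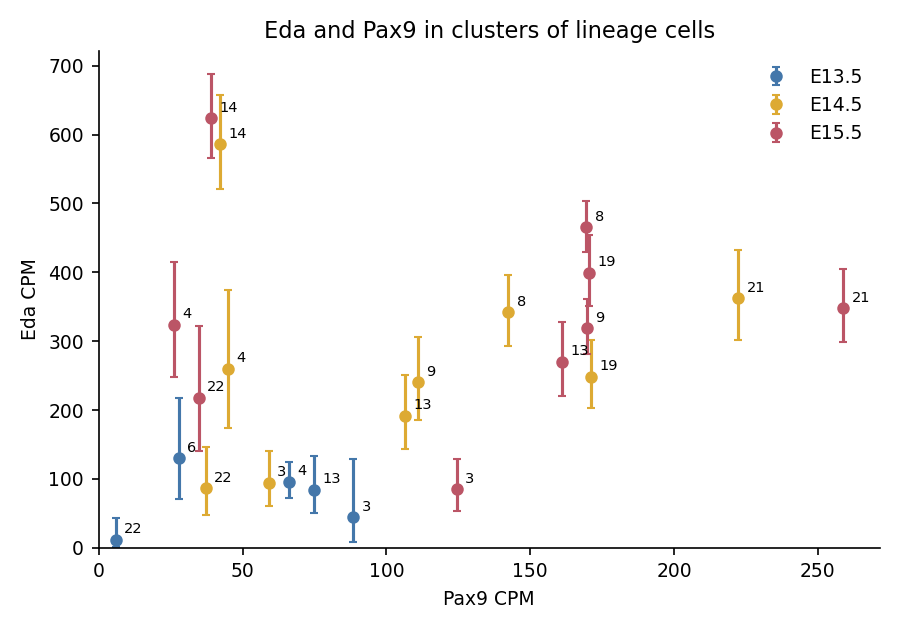
Eda against Pax9, both in CPM of summed UMIs, for each lineage cluster (number beside the point) in each library (colour). Cluster 14 combines the highest Eda, 586 and 624 CPM, with low Pax9, 42.3 and 39.2 CPM, while cluster 21 has the highest Pax9, 222 and 259 CPM, with Eda at 363 and 349 CPM.

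Eda was also read in epithelial cells, and its level there depended on the kind of epithelium. Epithelial cells with 2 or more of 8 markers of stratified epithelium (Trp63, Krt5, Krt14, Krt15, Krt6a, Perp, Sfn and Dsp), the type that covers the oral face of the palate, numbered 24, 56 and 158. Their Eda level was 228 CPM (143-345), 356 CPM (278-449) and 319 CPM (273-370). The remaining 53, 37 and 77 epithelial cells had 140 CPM (90.6-207), 24.2 CPM (4.98-70.6) and 87.9 CPM (55.1-133), below the stratified cells at E14.5 and E15.5 with no overlap of intervals. Mesenchymal markers in epithelial cells summed to 3.80%, 4.35% and 5.54% of their lineage level (in stratified cells 5.42%, 5.76% and 6.24%), while Eda there stood at 170%, 74.9% and 63.1% of the lineage level. In epithelial cells 1, 3 and 4 of the 8 mesenchymal markers reached 20 CPM, and Twist2, Pdgfra and Lum were at 0 at E13.5. The part of mesenchymal RNA in epithelial Eda was not tested.

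Set against the lineage, epithelial Eda was 1.70-fold (1.19-2.38), 0.749-fold (0.583-0.950) and 0.631-fold (0.542-0.731) in order of stage. The first interval lies above equality and the later ones below. At E13.5 the 5 highest of 77 epithelial cells held 48.9% of the 47 Eda UMIs, so the change of side rests on few cells. Stratified cells went from 2.27-fold (1.38-3.57) over 1.17-fold (0.903-1.49) to 0.815-fold (0.695-0.951). With the 3 libraries as replicates and the library as a block, edgeR's quasi-likelihood test gave a log2 difference of -0.24 (SE 0.22, Benjamini-Hochberg adjusted p = 0.473), with Eda higher in the epithelium in 1 of 3 libraries. In the same test 31.5% of 10374 genes were called. Without the E13.5 library the difference was -0.61 with an adjusted p of 0.00203 by edgeR, so the absence of a call rests on that library. The E13.5 excess depended on how epithelial cells were picked: with at least 3 markers per cell Eda was 128 CPM against 95.4 in the lineage, and with classes taken from clusters 109 against 94.3 CPM. With cells holding 2 or more markers of another lineage removed it was larger, 239 against 92.8 CPM, and the E14.5 values changed order, 339 against 326 CPM, while E15.5 kept its order at 298 against 385 CPM.

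Edar, the receptor, was rare, and at E15.5 its level was higher in the epithelium than in the mesenchymal lineage. Only 41 Edar UMIs were counted in the 7917 cells, 20 of them in the epithelium (17 in stratified cells), 10 in the lineage and 7 in neuronal cells. In the epithelium there were 1, 2 and 17 Edar UMIs in order of stage, or 3.64 CPM (0.0921-20.3), 6.18 CPM (0.748-22.3) and 21.2 CPM (12.3-33.9). In the lineage there were 1, 2 and 7, or 0.709 CPM (0.0180-3.95), 0.647 CPM (0.0783-2.34) and 1.38 CPM (0.557-2.85). Epithelial and lineage intervals overlap at the 2 earlier stages and are apart at E15.5. With classes taken from clusters the E15.5 epithelial value was 13.8 CPM, against 1.18 CPM in the lineage. No Edar UMI was found in endothelial, myeloid, glial, muscle or mural cells, of which there were 111, 163, 74, 34 and 21; in endothelial cells this allows up to 8.89 CPM and in myeloid cells up to 7.11 CPM.

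At E15.5 Edar was 15.3-fold (6.03-43.7) higher in the epithelium than in the lineage, and 19.6-fold (7.53-56.9) higher in stratified cells. Stratified cells held 15 Edar UMIs in 14 of 158 cells, 27.2 CPM (15.2-44.8), and the remaining epithelial cells 2 UMIs in 1 of 77 cells, 7.99 CPM (0.968-28.9). These 2 intervals overlap, and the split moved with the number of markers asked for: with 3 markers, stratified cells had 9 Edar UMIs (19.4 CPM) and the remaining cells 8 (23.7 CPM), while with 1 marker all 17 lay in stratified cells. These counts place Edar higher in the epithelium than in the lineage at E15.5, but do not settle its place within the epithelium. Before thinning, 6.38% of E15.5 epithelial cells had an Edar UMI (95% interval 3.62-10.3%), against 0.412% of lineage cells and 0 of 145 endothelial plus myeloid cells, which allows a share of up to 2.07% by the limit of 3 counts and 2.51% by the exact interval. Thinned to 1500 UMIs the epithelial share was 2.98% (0.973-6.81%), 3.80% when averaged over all possible draws, against 0.365% in the lineage, and with 0 of 88 endothelial plus myeloid cells allowing up to 3.41% or, by the exact interval, 4.11%. The unthinned epithelial interval thus lies above that of the endothelial plus myeloid cells, and the thinned one does not.

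Over the 3 libraries Edar fell outside the test of epithelium against lineage because of its low counts. With the filter on low counts removed, edgeR gave Edar a log2 difference of 3.42 (SE 0.93, adjusted p = 0.00212), higher in the epithelium in 3 of 3 libraries; in that fit 8.63% of 22028 genes were called higher, 9.99% lower and 18.6% in all. That value rests on 20 epithelial and 10 lineage UMIs, of which 17 and 7 are from E15.5. The other libraries compare 1 with 1 UMI (E13.5) and 2 with 2 (E14.5), too few to count as agreement between libraries. Epithelial Edar at E15.5 was 3.43-fold (0.814-30.6) its E14.5 value and 5.83-fold (0.913-244) its E13.5 value, not separable from counting error. Ratios of 2-fold or more were also read for 10.3% and 19.5% of genes in the epithelium. The 18 epithelial cells with an Edar UMI were deeper than the others, with a median of 3277.5 against 2381 UMIs. Among them 8 also had an Eda UMI, 2 an Edaradd UMI, 4 a Tnfrsf19 UMI and 1 a Shh UMI; among the 387 other epithelial cells the numbers were 118, 40, 30 and 4. Ligand and receptor transcripts were thus read in the same cell in 8 epithelial cells, with the depth difference not corrected.

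**Figure D3:**
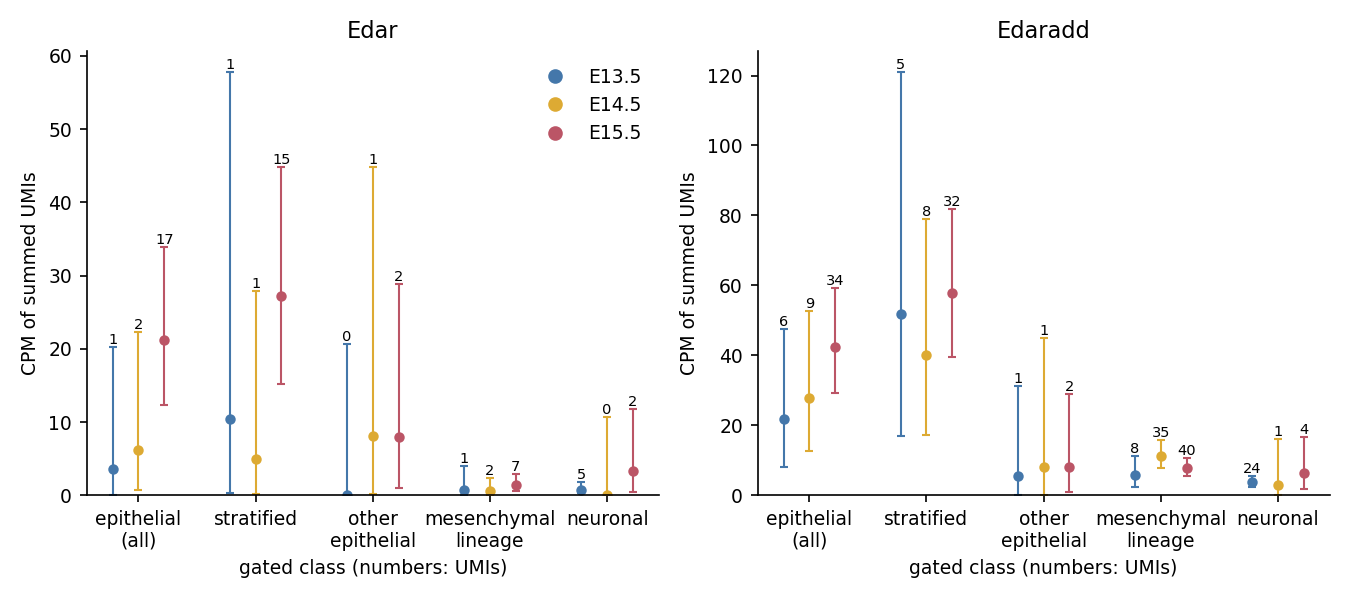
Edar and Edaradd in CPM of summed UMIs in the epithelium, its stratified and remaining cells, the mesenchymal lineage and neuronal cells, with 95% exact Poisson intervals and the number of UMIs above each point. Edar reaches 21.2 CPM in the E15.5 epithelium on 17 UMIs, and Edaradd is above 20 CPM in the epithelium at all 3 stages and below 12 CPM in the lineage.

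Edaradd, the adaptor that binds the receptor's death domain, was higher in the epithelium than in the mesenchymal lineage over the 3 libraries. In the epithelium it stood at 21.8 CPM (8.01-47.5), 27.8 CPM (12.7-52.8) and 42.4 CPM (29.4-59.2), from 6, 9 and 34 UMIs. In the lineage it was at 5.67 CPM (2.45-11.2), 11.3 CPM (7.88-15.7) and 7.91 CPM (5.65-10.8), from 8, 35 and 40 UMIs. The epithelial values were 3.85-fold (1.10-12.6), 2.46-fold (1.04-5.22) and 5.36-fold (3.29-8.68) the lineage values, each interval above equality, at the first 2 stages only just. With classes taken from clusters the epithelial values were lower, at 12.6, 19.6 and 34.9 CPM against 6.91, 9.91 and 7.45 CPM in the lineage. In edgeR's quasi-likelihood test Edaradd had a log2 difference of 1.93 (SE 0.38, adjusted p = 0.00193) and was higher in the epithelium in 3 of 3 libraries, where 15.1% of genes were called higher. Without the E15.5 library the difference was 1.49 with an adjusted p of 0.0592, no longer past 0.05.

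By the 2-marker rule, stratified cells held 5 of 6, 8 of 9 and 32 of 34 epithelial Edaradd UMIs. The stratified and remaining epithelial intervals overlapped at the 2 earlier stages and were apart at E15.5, with 58.0 CPM (39.7-81.8) against 7.99 CPM (0.968-28.9). With 3 markers asked for, stratified cells held 2, 6 and 30 Edaradd UMIs and the remaining cells 4, 3 and 4, so the E13.5 majority changed side, while the E15.5 intervals stayed apart, at 64.5 CPM (43.5-92.1) and 11.9 CPM (3.23-30.4). Stratified cells exceeded the lineage 9.14-fold (2.35-31.7), 3.54-fold (1.42-7.78) and 7.33-fold (4.46-12.0) at the 3 stages. From E13.5 to E15.5 Edaradd was at a ratio of 1.94 (0.806-5.66) in the epithelium and 1.12 (0.432-3.67) in stratified cells, neither separable from counting error. In shares of cells thinned to 1500 UMIs, Edaradd was read in 2.86%, 2.70% and 8.33% of epithelial cells and in 0.583%, 1.24% and 0.820% of lineage cells. Averaged over all possible draws, the epithelial shares were 3.33%, 5.04% and 7.23%. Endothelial plus myeloid cells had no Edaradd UMI in the thinned 15, 66 and 88 cells, although 1 of 27 unthinned E13.5 cells had one, which gives 5.17% averaged over draws. The E15.5 epithelial interval (4.63-13.6%) lies above the exact upper limit of 4.11% for 0 of 88 cells, while the earlier epithelial shares, from 2 cells each, cannot be separated from background. Neuronal cells had 24, 1 and 4 Edaradd UMIs, at most 6.51 CPM.

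The promoters of the receptor and the adaptor are shown because both genes were higher in the epithelium. Each window holds 250 bases before and 50 after the RefSeq start (GRCm38.p6), 5′ to 3′ on the gene's own minus strand, at 10:58675647-58675946 for Edar and 13:12520401-12520700 for Edaradd. Capitals mark matches to CTTTGA or CTTTGT, letters at the core of sites bound by the Wnt-responsive TCF/LEF factors, searched on both strands.
Edar promoter: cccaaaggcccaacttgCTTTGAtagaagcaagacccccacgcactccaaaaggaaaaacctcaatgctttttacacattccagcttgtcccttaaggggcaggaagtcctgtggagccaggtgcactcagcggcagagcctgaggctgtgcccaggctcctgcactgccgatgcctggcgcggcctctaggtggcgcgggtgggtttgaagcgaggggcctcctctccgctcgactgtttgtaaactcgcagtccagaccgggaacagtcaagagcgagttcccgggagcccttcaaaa
Edaradd promoter: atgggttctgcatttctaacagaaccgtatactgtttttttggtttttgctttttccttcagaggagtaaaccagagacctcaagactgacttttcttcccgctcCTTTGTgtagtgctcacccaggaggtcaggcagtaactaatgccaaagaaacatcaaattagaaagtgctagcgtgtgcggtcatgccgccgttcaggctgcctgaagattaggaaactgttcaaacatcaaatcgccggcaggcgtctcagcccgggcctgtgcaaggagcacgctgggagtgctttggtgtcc
Each of these windows holds 1 match, CTTTGA at -233 from the Edar start and CTTTGT at -145 from the Edaradd start, and the Eda window holds none. Of 32851 RefSeq promoter windows of this length, 16.0% hold CTTTGA, 18.7% CTTTGT and 31.2% either, so 1 match is common. The windows differ in base composition: G and C make up 74.3% of the Eda window, 58.7% of the Edar window and 49.3% of the Edaradd window, against a median of 52.7%.

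Neither of the other receptors listed was called in the epithelium. Eda2r, the receptor of EDA-A2, had 9, 6 and 7 UMIs in the lineage, 6.38 CPM (2.92-12.1), 1.94 CPM (0.712-4.22) and 1.38 CPM (0.557-2.85), and 0, 1 and 0 in the epithelium, too few for the test. At E15.5, 4 of its 7 lineage UMIs came from osteogenic cells, 13.0-fold (2.19-88.6) the mesenchymal level on very few counts. Tnfrsf19, the related receptor TROY, stood at 9.93, 54.6 and 73.0 CPM in the lineage and 21.8, 21.6 and 47.4 CPM in the epithelium, with no call between them (edgeR log2 difference -0.61, SE 0.34, adjusted p = 0.202). Like Eda, it was higher in osteogenic than in mesenchymal cells, 3.47-fold (2.27-5.17) at E14.5 and 1.68-fold (1.23-2.25) at E15.5.

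Of 40 genes listed for the pathway, 1 of which (Cxcl11) was not analysed here, 25 passed the filter on low counts in the test of epithelium against lineage, 4 were called higher in the epithelium and 2 lower. Their median log2 difference was -0.21. For all genes tested, 15.1% were called higher and 16.5% lower. Of the 7 genes from the adaptor to the IKK complex, 6 passed; Edaradd was called higher and Tab2, which links TRAF6 to the kinase TAK1, lower (log2 difference -0.62, SE 0.18, edgeR adjusted p = 0.0190). Tab2 was at 69.1, 77.2 and 87.3 CPM in the epithelium against 101, 127 and 127 CPM in the lineage. None of the 4 NF-kB factors that passed was called. Nfkbia, the NF-kB inhibitor that NF-kB itself induces, was called higher (log2 difference 0.87, SE 0.21, edgeR adjusted p = 0.00849), at 61.8, 64.9 and 88.5 CPM in the epithelium against 34.7, 36.2 and 45.1 CPM in the lineage. Furin and Pcsk6, proteases of the family that frees the ligand, were not called. Furin was at 32.7, 30.9 and 33.7 CPM in the epithelium and 22.7, 29.1 and 25.1 CPM in the lineage, and Pcsk6 at 7.27, 12.4 and 32.4 CPM against 12.1, 36.9 and 47.3 CPM.

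Of 14 genes reported as ectodysplasin targets, 13 were analysed, 4 passed the filter and 2 were called, both higher in the epithelium. Fst, which encodes the activin antagonist follistatin, was at 29.1, 89.6 and 63.6 CPM in the epithelium and 25.5, 20.4 and 34.4 CPM in the lineage (log2 difference 1.14, SE 0.33, edgeR adjusted p = 0.0190). Lrp4, a receptor of Wnt inhibitors, was at 54.5, 49.4 and 61.1 CPM against 31.2, 28.8 and 28.1 CPM (log2 difference 0.91, SE 0.25, edgeR adjusted p = 0.0142). Sostdc1, a BMP and Wnt antagonist, was not called, at 21.8, 18.5 and 106 CPM in the epithelium and 44.0, 68.5 and 82.7 CPM in the lineage, the highest value of both classes being that of E15.5. Ccn2, which encodes a matrix-associated growth factor modulator, was not called either (log2 difference -0.90, SE 0.47, edgeR adjusted p = 0.169), with the lower value in the epithelium at each stage: 21.8, 0 and 21.2 CPM against 31.2, 25.5 and 27.5 CPM. Shh, which marks the rugae, had 5, 0 and 6 UMIs in the epithelium, all in stratified cells, and 0, 1 and 1 in the lineage. Wnt10a had 0, 3 and 8 UMIs in stratified cells and none in the remaining epithelium. Dkk4 had none in the epithelium at any stage. Of the 4 upstream Wnt genes, Axin2, a Wnt feedback gene, was called lower (log2 difference -1.45, SE 0.34, edgeR adjusted p = 0.00579), and Lef1, Tcf7 and Ctnnb1 were not called.

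**Figure D4:**
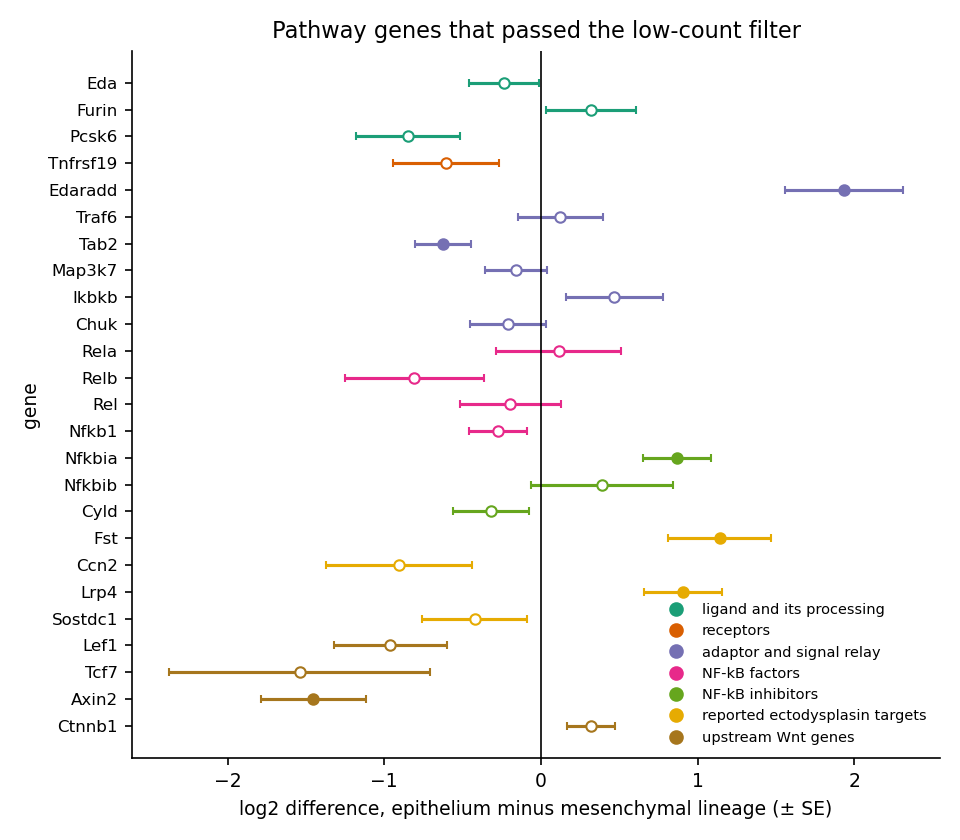
Log2 difference of epithelium over mesenchymal lineage, with its standard error, for the 25 pathway genes that passed the filter on low counts; filled points have an edgeR adjusted p under 0.05. Edaradd, Nfkbia, Fst and Lrp4 are filled on the higher side and Tab2 and Axin2 on the lower, with Eda near 0 at -0.24.

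Lineage cells with a Pax9 transcript were compared with those without one because the study's aims concern Pax9-/- embryos. Pax9, a paired-box transcription factor of palatal mesenchyme, was at 62.4, 113 and 145 CPM in the lineage. Cells were thinned to 1500 UMIs, after which 26 of 343, 114 of 724 and 192 of 1097 cells had a Pax9 UMI. A cell without one may still express the gene, so this is a split of readings and not of genotypes.

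No difference in Eda passed the test between these groups. Cells with a Pax9 UMI had Eda at 76.9 CPM (15.9-225), 263 CPM (192-352) and 358 CPM (292-434) at the 3 stages. Cells without one had 69.4 CPM (47.8-97.5), 307 CPM (272-345) and 412 CPM (378-447). The ratios were 1.11-fold (0.218-3.53), 0.857-fold (0.611-1.18) and 0.869-fold (0.697-1.07), each interval including equality. With cells thinned to 1000 UMIs the E15.5 log2 ratio was -0.66, further from equality than the interval at 1500 UMIs allows. An Eda UMI was read in 11.5%, 28.9% and 34.4% of cells with a Pax9 UMI and in 9.15%, 28.7% and 34.8% of cells without. In edgeR's quasi-likelihood test over the 3 libraries the log2 difference was -0.21 (SE 0.17, adjusted p = 0.903), with Eda higher beside Pax9 in 1 of 3 libraries; 0.722% of 6507 genes were called, 0.323% higher and 0.400% lower. The result of 1 thinning draw varies, so 100 more were made: the log2 ratio had a median of -0.78, -0.11 and -0.30 in order of stage, and was below 0 in 84, 69 and 96 draws. The draws reuse the same cells and give no independent support, but the E15.5 ratio was seldom above 0.

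Bone and cartilage markers moved with the split. The 8 osteogenic markers summed to 25.6, 46.8 and 83.3 CPM in cells with a Pax9 UMI (7, 5 and 4 of 8 at 0) and to 37.9, 685 and 312 CPM in cells without (3, 0 and 0 at 0). Chondrogenic markers summed to 256, 87.7 and 72.9 CPM against 1563, 1520 and 358 CPM. With the cluster mix of the cells without Pax9 set to that of the cells with it, the Eda ratios were 1.03, 0.964 and 0.934. Within single clusters the ratios ran from 0.781 (0.367-1.52; cluster 8 at E14.5) to 1.59 (0.867-2.84; cluster 21 at E14.5), all 6 intervals including equality. These matched ratios come from 1 thinning draw and were not computed over the further draws.

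**Figure D5:**
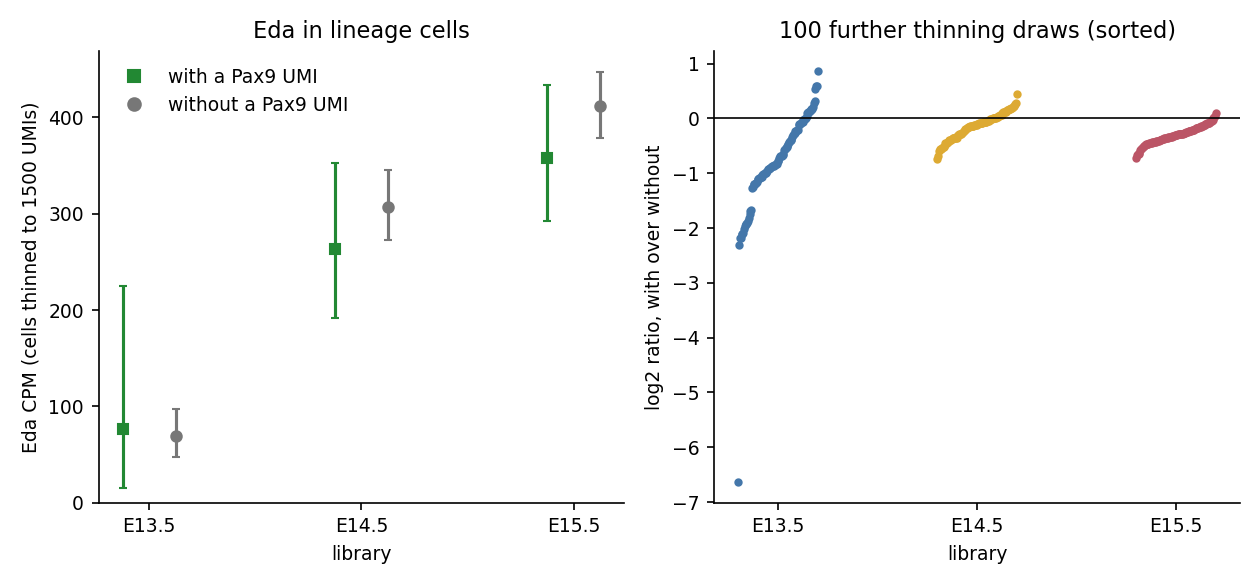
Left, Eda in CPM of lineage cells with (squares) and without (circles) a Pax9 UMI in each library, cells thinned to 1500 UMIs, with 95% exact Poisson intervals. Right, log2 ratio of with over without in 100 further thinning draws, sorted; the E15.5 draws have a median of -0.30 with 96 of 100 below 0, and the lone E13.5 point at -6.64 is a draw with no Eda UMI beside Pax9.

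The same split at E15.5 was made for 5 other palate regulators, with 1 draw for the ratio and 100 further draws beside it. Cells with a UMI of Msx1, a homeobox gene of anterior palatal mesenchyme, had 0.663-fold (0.516-0.841) the Eda of cells without, and the log2 ratio was below 0 in 100 of 100 further draws, with a median of -0.52. For Osr2 the ratio was 0.587 (0.361-0.905), with a median log2 ratio over the draws of -0.50, below 0 in 98. For Lef1 it was 0.520 (0.316-0.810), lower than most draws, whose median log2 ratio was -0.42, below 0 in 95. Osr1 had a ratio of 0.754 (0.504-1.09), with a median of -0.26, below 0 in 84. For Shox2 the ratio was 0.984 (0.817-1.18), its interval including equality, with a median of 0.18, below 0 in 11. The draws reuse the same cells of 1 library, so their numbers show the spread from thinning only. They give no independent support for a direction. At E13.5 and E14.5 the intervals for all 5 genes included equality. The E13.5 ratios lay above 1, at 3.37 for Osr2, 1.76 for Msx1, 1.75 for Lef1, 1.39 for Shox2 and 1.20 for Osr1. They rest on 2 to 6 Eda UMIs in the cells with the regulator. Over the draws the E13.5 median log2 ratios were 0.59, 0.12, 0.80, 0.36 and -1.27 in the same order. Osteogenic cells made up 1.72% of E15.5 cells with an Osr2 UMI and 5.49% of those without. The shares were 5.98% and 5.15% for Msx1, 8.06% and 5.12% for Lef1, 3.08% and 5.97% for Shox2 and 3.08% and 5.43% for Osr1. Their part in the ratios was not tested, and no test between libraries was made for these 5 splits.

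Across 22 class-by-stage groups of at least 20 cells and 100000 UMIs, the genes whose log2(CPM + 1) followed the members most closely were found among 12412 genes. For Eda they were Ptgfrn (Pearson r 0.92), Ankrd27 (0.91), Gpc4 (0.89), Bmp1 (0.89) and Zfp950 (0.88). For Edar they were Serpinb11 (0.90), Krt1 (0.89), Bpifa1 (0.89), Dsc3 (0.88) and Krt4 (0.86), but Edar itself averaged only 2.84 CPM over these groups. For Edaradd they included Cdh3 (0.90), Clip4 (0.89), Dtnb (0.86) and Meis1 (0.85). The groups come from 3 libraries and share their depth, and few of these genes were kept under another limit: with groups of at least 200000 UMIs (13 groups), 0 of the 5 genes were kept for Eda, 2 for Edar and 0 for Edaradd.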

How the data were processed

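Single-cell libraries of mouse palatal shelves at 3 stages were analysed from the authors' deposited matrices of unnormalized UMI counts. Per the file headers these came from Cell Ranger 6.1.2; the build, mm10, is taken from the submitters' processing notes. The annotation, the library chemistry and whether intronic reads were counted are not given in the sources used here, so how well the members' transcripts were captured is unknown. The members and all gene lists were chosen with earlier results of these data known.

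Cells with under 500 genes or over 20% mitochondrial UMIs were left out, as were the highest-scoring cells by doublet score at 0.8% per 1000 cells (109, 25 and 56 cells), because scrublet's own threshold marked 0, 4 and 1. Each cell went to the class with most distinct markers, at least 2 and more than any other class; chondrogenic cells needed 3 markers of their list and osteogenic cells 2. Clusters were made with scanpy 1.11.5 (2000 variable genes, 30 components, 15 neighbours, Leiden resolution 1). UMIs were summed per class and library. Fold changes carry exact conditional 95% intervals, shares exact Clopper-Pearson intervals, log2 ratios 1 added CPM, and a count of 0 is given an upper limit of 3 counts; all of these cover counting error only. Stage ratios used genes with a mean of at least 5 CPM, and a 2-fold change served as the call.

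Class and Pax9 differences were tested over all genes with edgeR 4.0.16 (R 4.3.3; quasi-likelihood test, library as a block, Benjamini-Hochberg adjustment), tested beforehand on simulated data. The block reflects that both sums of a pair come from the same library. The 3 stages serve as replicates of these differences, so the p-values measure the spread between 3 pooled libraries. DESeq2 1.42.0 was an alternative. Named genes were the members, the pathway list and the 5 genes most like each member, of which 1 is not reported here. Promoters come from RefSeq (3 of 3 members matched).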

Additional observations from a re-analysis of the deposited data

Results flagged for a closer look

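Epithelial Eda relative to the mesenchymal lineage changed side between stages. The fold of epithelium over lineage was 1.70, 0.749 and 0.631 in order of stage, so the E13.5 library lay on one side and the later ones on the other. Without cells holding 2 or more markers of another lineage, E14.5 no longer lay on the lower side, with 339 CPM in the epithelium and 326 CPM in the lineage. At E13.5 the 5 highest of 77 epithelial cells held 48.9% of the Eda UMIs. The difference between stages was not tested, since each stage is 1 library.

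Eda was also read in cells that met no marker gate and entered no comparison. It stood at 55.0 CPM (44.0-67.9) in 830, 268 CPM (231-309) in 213 and 226 CPM (188-271) in 259 such cells, in order of stage. In E14.5 and E15.5 this is above the endothelial and myeloid levels by the intervals; the 27 endothelial and myeloid cells of E13.5 held no Eda UMI, too few to separate them. Mesenchymal markers in these cells summed to 17.8%, 45.5% and 21.7% of their lineage level, and their part in these values was not tested.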

How the results depend on the processing

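Eda's log2 stage ratios in the lineage ran from 1.33 to 1.80 for E14.5 over E13.5, 0.24 to 0.44 for E15.5 over E14.5 and 1.65 to 2.05 for both steps; the low ends, 1.33 and 1.65 without osteogenic and chondrogenic cells and 0.24 without cells holding 2 or more markers of another lineage, moved beyond counting error. No value could be had for male cells alone. Eda's class difference turned to 0.20 without cells holding markers of another lineage (edgeR adjusted p = 0.649) and ran from -0.61 (without E13.5, past the threshold) to 0.071 (without E15.5) as each library was left out; the cause was not tested. For Edaradd that range was 1.49 to 2.22. The count of class calls, 3270, was 1940 with DESeq2, 1770 with no replicate block and 2074 to 4185 as each library was left out. The 47 calls of the Pax9 split became 18 without cells holding markers of another lineage, 20 at 2000 UMIs, 14 without osteogenic and chondrogenic cells, 6 with DESeq2, 100 with no filter on low counts, 0 with no replicate block (179 genes at an unadjusted edgeR p under 0.05) and 0 to 99 as each library was left out (0 without E14.5, 190 at an unadjusted p under 0.05). Eda's Pax9 log2 ratio was -0.66 at E15.5 at 1000 UMIs; among 100 further draws, chosen after seeing the data, it reached -6.64 at E13.5 (a draw with no Eda UMI beside Pax9), -0.73 and 0.44 at E14.5 and -0.72 at E15.5. Leaving out the replicate block changed no call for a member: Eda -0.33 and Edaradd 1.90 between classes, Eda -0.04 beside Pax9. Depth limits what can be said of Edar, with 41 UMIs in all.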
